A study of Mus musculus with 29 samples.

Results

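Ncoa1 and Ncoa6 encode nuclear receptor coactivators, and their tumour over PBS ratios in mouse hypothalamus are described here at 3 times. They are 2 of the 8726 genes that the array annotation names, and each is represented by 1 spotted oligonucleotide, annotated to the transcript records U64606 for Ncoa1 and NM_019825 for Ncoa6. Both were chosen by symbol after their ratios in these data were known, so these ratios are given as a description with no test. The tested animals were female BALB/c mice, 8 weeks old, that had received 100000 cells of 4T-1, a mammary carcinoma line of mouse origin, under the skin in 100 µl PBS, and the controls had received PBS alone. Hypothalamus was taken 18, 72 or 192 h later, and RNA of the tumour and the PBS animals was hybridised together on 2-colour arrays printed in-house. The members were followed on prints 3, 4 and 5, which hold 16 of the 29 arrays and 9 of the 13 biological replicates, 3 at each time. The labels do not say whether a replicate pools several animals, so every p-value below measures the spread between these samples only.

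Coactivators do not bind DNA by themselves. A nuclear receptor with its hormone in place recruits them to a target gene, where they bring in enzymes that modify histones and the machinery that starts transcription. Ncoa1, also called steroid receptor coactivator 1, belongs to the p160 family and recruits histone acetyltransferases; in rodent brain it is known for its part in responses to oestrogen and progesterone. Ncoa6, also called activating signal cointegrator 2, is a scaffold that belongs to a histone methyltransferase complex with Kmt2c or Kmt2d.

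A ratio is log2 of the tumour over the PBS signal, so a value below 0 means a lower signal in the mice given tumour cells. This direction is likely and not settled, because it assumes that the scanner's channels A and B follow the labelled order of Cy3 and Cy5. In tissue RNA, fewer cells that express a gene and less of its RNA per cell cannot be told apart. All 10 hypothalamic peptide genes used as tissue markers gave a usable ratio on some of the 16 arrays, from 5 arrays for Pnoc to all 16 for Oxt, which encodes oxytocin. The share of usable spots ran from 14.78% to 82.98% over these arrays, and replicate 5 at 18 h was the poorest, with 14.78% and 21.91% on its arrays.

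Ncoa1 was below 0 at 18 h in each replicate, and lay near 0 at both later times. Its log2 ratio at 18 h was -0.94 in replicate 3, -0.81 in replicate 4 and -0.17 in replicate 5. The value of replicate 4 rests on 1 array with 2 usable scans, in both of which the tumour and the PBS signal were under the listed background. With spots under their background left out, replicate 4 had no value, and the mean of the other replicates was -0.49 (n = 2). The mean was -0.64 ± 0.41 (SD, n = 3), a tumour signal 0.642 times that of PBS. At 72 h Ncoa1 had 0.11 in replicate 1, -0.09 in replicate 3 and 0.24 in replicate 4, with a mean of 0.09 ± 0.17 (SD, n = 3). At 192 h it had 0.10 in replicate 1, -0.03 in replicate 3 and -0.04 in replicate 4, with a mean of 0.0098 ± 0.07 (SD, n = 3). The replicates of both later times scattered on each side of 0 and overlapped each other, and all 3 values of 18 h lay below all 6 of the later times.

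Ncoa6 was above 0 in each replicate at 72 h and below 0 in each replicate at 192 h. At 18 h it had -0.63 in replicate 3 and -0.05 in replicate 4, with no usable spot in replicate 5. These 2 values were too far apart to give one level, and their mean was -0.34 ± 0.41 (SD, n = 2). In replicate 4 at 18 h the tumour signal of Ncoa6 was under its listed background in every usable scan. With such spots left out, only replicate 3 had a value, -0.44. At 72 h the log2 ratio was 0.50 in replicate 1, 0.35 in replicate 3 and 0.49 in replicate 4. The mean was 0.45 ± 0.09 (SD, n = 3), a tumour signal 1.362 times that of PBS. The value of replicate 1 rests on 1 usable scan of 1 array, and that of replicate 4 on 1 array. Without dye correction the values at 72 h were 0.33, 0.35 and 0.66 in replicates 1, 3 and 4. At 192 h Ncoa6 had -0.38 in replicate 1, -0.28 in replicate 3 and -0.09 in replicate 4. That of replicate 4 averages 0.05 with tumour in Cy5 and -0.23 with tumour in Cy3. On its Cy5 array both signals were under the listed background in each usable scan. With such spots left out, replicate 4 stood at 0.0055. The mean was -0.25 ± 0.15 (SD, n = 3), a tumour signal 0.842 times that of PBS, and these values did not overlap those of 72 h.

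**Figure D1:**
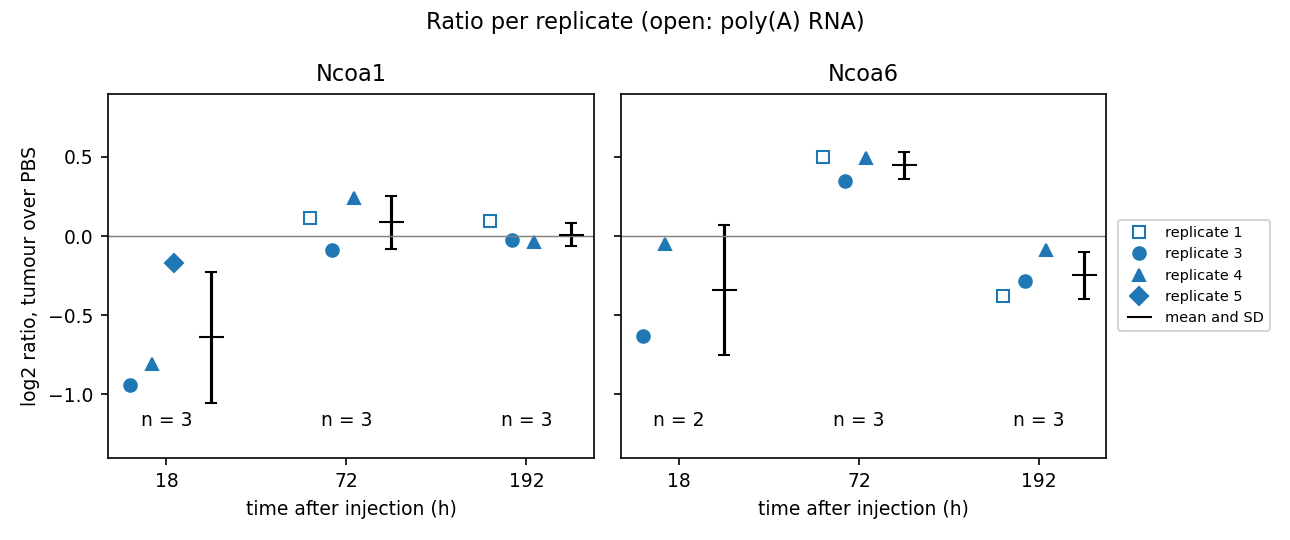
Log2 tumour over PBS ratio (vertical axis) of Ncoa1 and Ncoa6 in each biological replicate by time after injection (horizontal axis, h). Each symbol is 1 replicate, open squares are poly(A) RNA, and the bar gives the mean and SD over the n replicates printed under it. Ncoa1 is lowest at 18 h (mean -0.64), and Ncoa6 is above 0 at 72 h (0.45) and below 0 at 192 h (-0.25).

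The same pattern was set against all other genes measured in the same replicates. In replicates 3 and 4 at 18 h only 3.4% and 3.6% of the genes lay below Ncoa1, and in replicate 5 24.7% did. For Ncoa6 at 72 h, 89.1%, 89.4% and 95.5% of the genes lay below it in replicates 1, 3 and 4. At 192 h 19.6%, 18.2% and 32.9% lay below Ncoa6 in replicates 1, 3 and 4, which is well inside the bulk of the genes. Replicate 3 at 18 h, which gave the lowest ratio of either gene, also had the widest spread over genes, an SD of 0.56 on the log2 scale against 0.30 to 0.44 in the other 8 replicates. What part that spread has in its low ratios was not tested.

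Ratios of one sign in all 3 replicates were common among all genes. At 18 h 19.5% of the 1444 genes with a value in every replicate were below 0 in all 3, as Ncoa1 was, and the median of these genes was -0.09. At 72 h 15% of 3600 genes were above 0 in all 3 replicates, as Ncoa6 was, and at 192 h 12.8% of 3269 genes were below 0 in all 3, as Ncoa6 was. Of 1001 genes, 10.6% were higher at 72 h than at 18 h with no overlap, as Ncoa1 was. Of 972 genes, 6.79% were higher at 192 h than at 18 h in the same sense, and of 738 genes 2.98% had all 3 values of 18 h below all 6 others, which Ncoa1 also had. For the step that Ncoa6 showed, 7.66% of 1894 genes were lower at 192 h than at 72 h with no overlap.

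No gene passed the test at any time or between times (limma, Benjamini-Hochberg adjusted p 0.05, two-sided), so 0% of the genes were called in each comparison. At 18 h 87 of 1444 genes had an unadjusted p under 0.05 (6.02%), at 72 h 200 of 3600 (5.56%) and at 192 h 90 of 3269 (2.75%), and the smallest adjusted p was 0.417, 0.460 and 0.599 at these times by limma. Differences from 18 h had such a p for 53 of 1001 genes at 72 h (5.29%) and for 33 of 972 genes at 192 h (3.4%). The step between the later times had one for 43 of 1894 genes (2.27%), and the F-test over all 3 times for 17 of 738 (2.3%). Ncoa6 entered no test at 18 h, since it had 2 values there.

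The signals behind these ratios were weak in many scans. Each array was scanned 3 times, and a scan was used for a gene where its spot was measured, unsaturated and above 0 in both channels after background correction. Ncoa1 had a usable spot in 38 of 48 scans (79.2%) and on 15 of 16 arrays. Ncoa6 had one in 30 of 48 scans (62.5%) and on 12 of 16 arrays. The median background-corrected signal of Ncoa1 was 1.64 times the listed local background in the tumour channel and 1.61 times in the PBS channel. For Ncoa6 it was 1.24 times in the tumour channel and 1.58 times in the PBS channel. Scans with a listed background of 0 in a channel do not enter the median of that channel. They are those of replicate 4 at 72 h with tumour in Cy3, for both genes. Repeat scans of an array differed by a median of 0.157 log2 for Ncoa1 and 0.1705 for Ncoa6, and by up to 0.474 and 0.624.

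The scanner values of Ncoa1 at 18 h were lower in the tumour channel before any normalization on 4 of the 5 arrays with a value. On the second scan of replicate 3 the tumour signal was 422488 against 511776 for PBS with tumour RNA in Cy5, and 207853 against 352410 with tumour RNA in Cy3. In replicate 4 the Cy5 array gave 112910 for tumour and 179680 for PBS, and the Cy3 array gave no ratio in any scan. In replicate 5 the Cy5 array gave 283414 for tumour and 337956 for PBS. Its Cy3 array gave a ratio in 1 scan only, 0.77 before and 0.33 after normalization, and this was the single 18 h array with Ncoa1 above 0.

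Loess normalization, which removes the trend of the ratio with brightness on each array, moved both members by amounts as large as the ratios themselves. The shift ran from -1.01 to 1.07 log2 over the arrays for Ncoa1 and from -1.11 to 1.19 for Ncoa6. It turned the sign of Ncoa1 on 2 of 15 arrays and that of Ncoa6 on 6 of 12. On the Cy5 array of replicate 3 at 18 h, Ncoa1 was at -0.24 before and -1.25 after loess, and Ncoa6 was at 0.29 before and -0.82 after. This is also the array whose normalized ratios correlated least with the authors' deposited table across spots (r = 0.403). On the swapped array of the same replicate the shifts were small, with Ncoa1 at -0.79 before and -0.63 after loess and Ncoa6 at -0.59 before and -0.44 after.

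At 72 h the Ncoa6 ratio was above 0 on 3 of 4 arrays before loess and on 3 of 4 after, but not the same 3. Replicate 1 had 0.0010 before and 0.33 after. In replicate 3 the array with tumour in Cy3 had 0.12 before and 0.73 after, and the array with tumour in Cy5, with 1 usable scan, 0.40 before and -0.04 after. In replicate 4 the only array with a value, tumour in Cy3, had -0.53 before and 0.66 after, the largest shift of either gene. On this array the listed background of the Ncoa6 spot was 0 in both channels in every scan. Leaving out spots under their background could therefore not remove this value. At 192 h Ncoa6 was below 0 on 3 of 4 arrays before loess and on 4 of 4 after, and the array of replicate 3 turned from 0.60 to -0.11. These values are without dye correction. With it the array of replicate 4 with tumour in Cy5 was at 0.05.

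**Figure D2:**
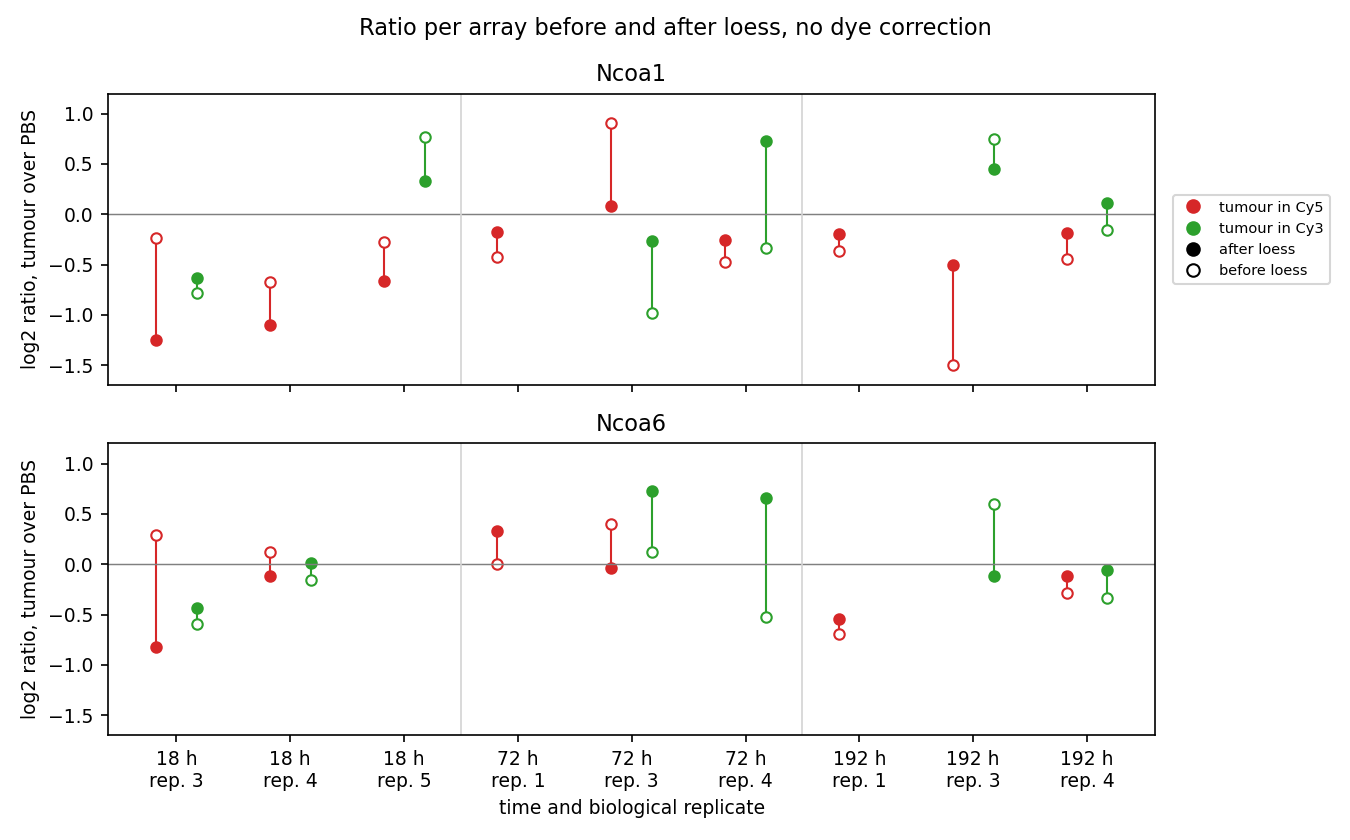
Log2 tumour over PBS ratio of each array (vertical axis) by time and biological replicate (horizontal axis) before loess (open points) and after it (filled points), with no dye correction. Red is tumour RNA in Cy5 and green is tumour RNA in Cy3; lines join the values of 1 array. The joined points move by up to 1.07 for Ncoa1 and 1.19 for Ncoa6, and they cross 0 on 2 and 6 arrays.

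The exchange of dyes gave a second look at the same RNA. After subtraction of each probe's own dye effect, -0.29 log2 for Ncoa1 and -0.17 for Ncoa6 as Cy5 over Cy3, both arrays of replicate 3 at 18 h gave close values. Ncoa1 had -0.96 with tumour in Cy5 and -0.92 with tumour in Cy3, and Ncoa6 had -0.65 and -0.60. This replicate was among those that gave the dye effect. Before the subtraction Ncoa1 had -1.25 and -0.63 there, and Ncoa6 had -0.82 and -0.44. With loess within print blocks, replicate 3 at 18 h stood at -0.20 for Ncoa1 and 0.02 for Ncoa6. In other replicates the orientations differed in sign, for Ncoa1 in 4 of 6 replicates measured both ways and for Ncoa6 in 2 of 4. The widest gap was in replicate 3 at 72 h, where Ncoa1 had 0.38 with tumour in Cy5 and -0.56 with tumour in Cy3. In that replicate Ncoa6 was above 0 both ways, at 0.13 and 0.56. Replicate 1 of 72 h and of 192 h is poly(A) RNA with 1 array on these prints, labelled in one orientation, and there the dye effect enters the ratio in full. The other 7 replicates are total RNA. One orientation also gave the only value of Ncoa1 in replicate 4 at 18 h, and of Ncoa6 in replicate 4 at 72 h and replicate 3 at 192 h. Without dye correction Ncoa1 stood at -0.18 in replicate 1 of 72 h, and at -0.20 in replicate 1 of 192 h, which put all 3 of its values at 192 h below 0. Its value in replicate 4 at 18 h was then -1.10.

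Print and RNA kind were not spread evenly over the times. All 18 h replicates followed here lie on print 5, as do replicates 3 and 4 at 72 h and replicate 4 at 192 h. Replicates 1 and 2 of 18 h, poly(A) RNA on print 1, were left out. On print 5 alone Ncoa1 had a mean of -0.64 at 18 h (n = 3), 0.07 at 72 h (n = 2) and -0.04 at 192 h (n = 1). Ncoa6 on print 5 alone had -0.34 at 18 h (n = 2), 0.42 at 72 h (n = 2) and -0.09 at 192 h (n = 1). At 18 h these are the values given above, since the replicates followed at that time share 1 print and are all total RNA. Time can therefore not be compared with print or RNA kind there. At 72 h the Ncoa6 mean of print 5 was close to that over prints 3 to 5, and at 192 h its value was nearer to 0.

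The authors' deposited table, a centred log ratio, was compared by sign alone, since its base is unknown and its sizes cannot be set against log2 values. In the authors' deposited table Ncoa1 at 18 h was below 0 on 4 of 5 arrays, from -0.531 to 0.090 with a median of -0.100. At 72 h it was below 0 on 3 of 5 arrays and at 192 h on 4 of 5 in that same authors' deposited table. For Ncoa6 at 18 h the authors' deposited table had 2 of 4 arrays above 0 and 2 below, from -0.102 to 0.090. The Cy5 array of replicate 3, below 0 after loess here, was above 0 in the authors' deposited table. Ncoa6 at 72 h was above 0 on all 3 arrays with a value in the authors' deposited table, at 0.021, 0.356 and 0.498. At 192 h the authors' deposited table had Ncoa6 below 0 on 2 of 4 arrays, from -0.173 to 0.091, so the lower ratio of 192 h was not seen on every array there.

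Across processing settings the sign of 4 of the 6 means held. Ncoa1 at 18 h was below 0 in 17 of 17 settings, from -1.04 to -0.21, and Ncoa6 at 72 h above 0 in 17 of 17, from 0.18 to 0.67. Ncoa6 at 192 h was below 0 in 17 of 17 settings, from -0.35 to -0.03, and Ncoa6 at 18 h in 16 of 16, from -0.63 to -7e-04. The end -7e-04 came with loess within print blocks. Replicates 3 and 4 stood at 0.02 and -0.02 there, which gives no direction. Ncoa1 had no stable sign later, being below 0 in 3 of 17 settings at 72 h and in 10 of 17 at 192 h. These settings include the leaving out of each replicate, all 5 prints and the authors' deposited table. The setting with all 5 prints takes in prints 1 and 2, where names matched intensities poorly, and gave the end 0.18. The authors' deposited table, whose log base is unknown, gave the ends -0.21 and -0.03. Without that table the ends were -0.44 for Ncoa1 at 18 h and -0.09 for Ncoa6 at 192 h. Ncoa6 at 18 h rested on replicate 3, since without it 1 replicate at -0.05 was left. Some of the counted settings could not change a mean. Each gene has 1 probe, so averaging all probes gave the reported means again, and at 18 h so did print 5 alone. For Ncoa6 so did both settings of the dye correction at 18, 72 and 192 h. Its replicates at 18 h were measured both ways. At 72 h replicate 1 had a value with tumour in Cy5 alone and replicate 4 in Cy3 alone. At 192 h replicate 1 had one in Cy5 alone and replicate 3 in Cy3 alone. The dye effect therefore cancelled in these means, so the settings could not check them.

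**Figure D3:**
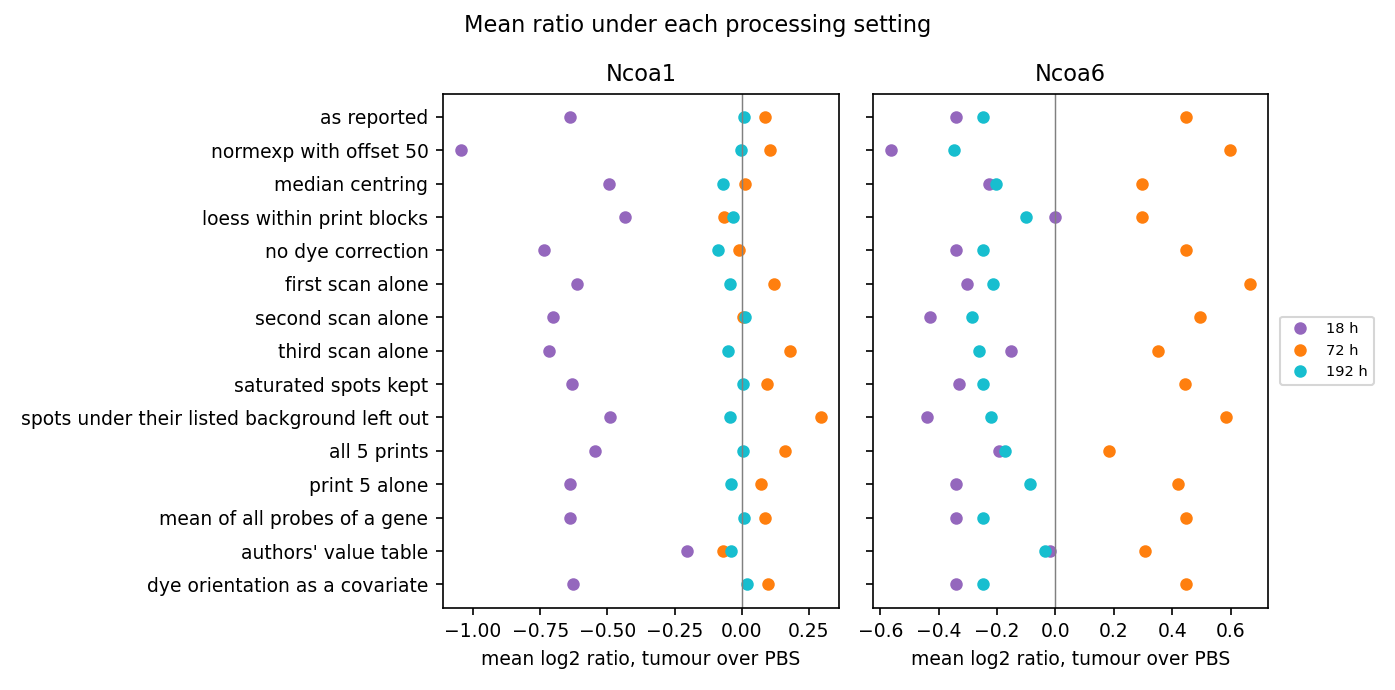
Mean log2 tumour over PBS ratio (horizontal axis) of Ncoa1 and Ncoa6 at 18, 72 and 192 h under each processing setting (vertical axis). Each point is the mean over the replicates with a value under that setting; the authors' table has an unknown log base. Ncoa1 at 18 h lies left of 0 and Ncoa6 at 72 h right of 0 in every row, and the Ncoa1 points of 72 h run from -0.07 to 0.29 and those of 192 h from -0.09 to 0.02.

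Set side by side, Ncoa6 was above Ncoa1 in 5 of the 8 replicates that measured both, all of them at 18 or 72 h. At 192 h Ncoa6 was below Ncoa1 in all 3 replicates, by -0.47 in replicate 1, -0.25 in replicate 3 and -0.05 in replicate 4. The Pearson correlation of the pair over the 8 replicates was 0.564, a value that shares arrays and normalization between the genes.

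Among 737 genes measured in all 9 replicates, the 5 whose ratios followed Ncoa1 most closely were Celf4 (r = 0.971), Rpa2 (0.955), Itsn2 (0.937), Tmeff2 (0.936) and Ndufa11 (0.913). Celf4 encodes an RNA-binding protein of neurons, and its mean log2 ratio was -0.22 at 18 h, 0.23 at 72 h and 0.15 at 192 h. Rpa2, a subunit of the protein that covers single-stranded DNA, had -0.41, 0.06 and -0.09 at these times. Tmeff2, a membrane protein gene with follistatin-like domains, was the lowest of the 5 at 18 h, with -0.77 in replicate 3, -1.17 in replicate 4 and -0.27 in replicate 5. Itsn2, an endocytic scaffold gene, and Ndufa11, of respiratory complex I, had -0.27 and -0.26 at 18 h. The likeness rested largely on replicates 3 and 4 of 18 h, which hold the lowest Ncoa1 ratios. Without them r over the other 7 replicates was 0.797 for Celf4, 0.665 for Rpa2, 0.694 for Itsn2, 0.728 for Tmeff2 and 0.333 for Ndufa11.

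Among 1324 genes measured in the 8 replicates with an Ncoa6 value, the 5 most alike were St14 (r = 0.980), 4930435H24Rik (0.961), Pcsk6 (0.947), Txn1 (0.937) and Hnrnpl (0.902). St14, which encodes the membrane protease matriptase, had 0.63, 0.34 and 0.36 in replicates 1, 3 and 4 at 72 h and -0.43, -0.20 and -0.01 at 192 h. Its order of replicates was the same as that of Ncoa6 across all 8 (Spearman's rho 1). Pcsk6, a proprotein convertase gene, had a mean of 0.22 at 72 h and -0.28 at 192 h. Txn1, which encodes thioredoxin, had 0.32 at 72 h and -0.06 at 192 h, and Hnrnpl, a splicing regulator gene, 0.21 and -0.12. Without replicates 1 and 4 of 72 h, the farthest from the median, r over the other 6 replicates was 0.988 for St14, 0.929 for 4930435H24Rik, 0.888 for Pcsk6, 0.867 for Txn1 and 0.794 for Hnrnpl. These correlations are the highest of many, over few replicates that share arrays, and are given as a description.

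**Figure D4:**
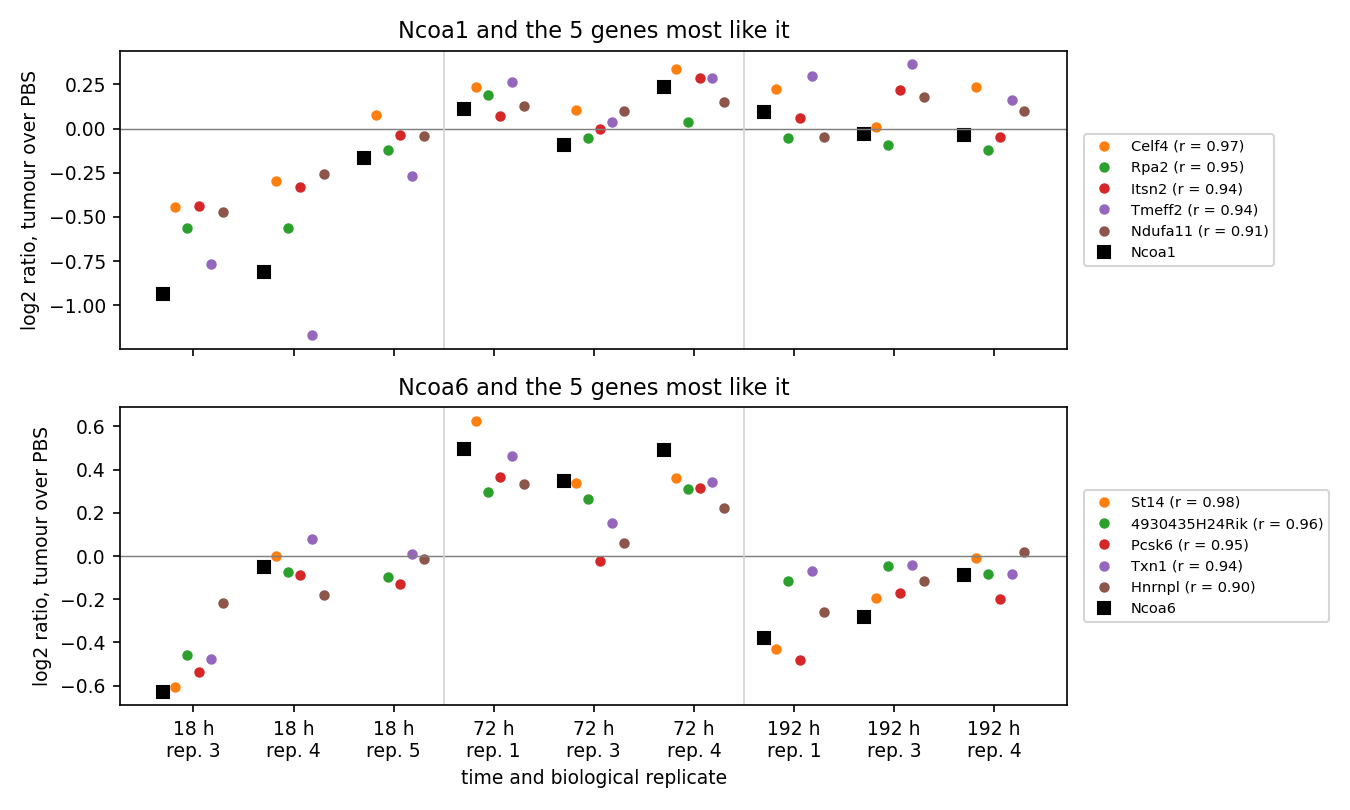
Log2 tumour over PBS ratio (vertical axis) in each biological replicate (horizontal axis) of Ncoa1 or Ncoa6 (black squares) and of the 5 genes with the highest Pearson correlation with it (coloured points, r in the legend). Points of 1 replicate are offset sideways for legibility. The Ncoa1 group is low in replicates 3 and 4 of 18 h, and the Ncoa6 group is mostly above 0 at 72 h and below 0 at 192 h.

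The other genes of the pathway were read as lists, and none of their tested members passed the test at any time (limma, adjusted p; the smallest unadjusted p of any such gene was 0.0515, for Dusp1 at 18 h). The background for these counts is that 31.0% of all tested genes were above 0 at 18 h, 54.0% at 72 h and 49.4% at 192 h, with medians of -0.09, 0.02 and -0.0019. Of 5 other Ncoa genes 2 had a probe. Ncoa2, the p160 relative of Ncoa1, had 0.09 ± 0.04 at 18 h, 0.13 ± 0.28 at 72 h and -0.08 ± 0.10 at 192 h (SD, n = 3 each). Ncoa4, a coactivator gene whose product is also the cargo receptor for ferritin, had 0.08 ± 0.63 at 18 h and 0.15 ± 0.13 at 192 h.

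Of 15 genes of the Ncoa6 methyltransferase complex and of Ncoa6 partners, 9 had a probe. At 72 h, when Ncoa6 was above 0, 5 of the 7 tested members were above 0 and 2 below, with a median of 0.15. Kdm6a, the histone demethylase of the complex, had 0.42, 0.04 and 0.77 in replicates 1, 3 and 4, a mean of 0.41 ± 0.36. Ash2l, a core subunit of the methyltransferase, had 0.24 ± 0.33. At 18 h both tested members were below 0, Rbbp5, another core subunit, at -0.32 ± 0.40 and Ash2l at -0.16 ± 0.18. At 192 h 2 of 3 were below 0, with Parp1, the poly(ADP-ribose) polymerase gene, at 0.26 ± 0.38 and Rbbp5 at -0.11 ± 0.36. Ash2l had the sign of the Ncoa6 mean at 18 and 72 h, with replicates on both sides of 0 each time.

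Of 40 other coactivators and histone-modifying partners of nuclear receptors, 19 had a probe. All 6 tested at 72 h were above 0, with a median of 0.05, led by Med12 of the Mediator complex at 0.26 ± 0.18 and Ascc2 at 0.09 ± 0.75. At 192 h 4 of 6 were above 0, led by Psmc5, a proteasome ATPase gene, at 0.19 ± 0.18 and Carm1, an arginine methyltransferase gene, at 0.14 ± 0.16. The only one tested at 18 h was Smarca2, a chromatin remodelling ATPase gene, at -0.05 ± 0.39. Corepressors, which silence receptor targets, had a probe for 10 of 19. Of them 1 of 2 was above 0 at 18 h, 3 of 5 at 72 h and 2 of 4 at 192 h. The corepressors farthest from 0 were Sin3b at 18 h (-0.18 ± 0.23), Phb2 at 72 h (-0.20 ± 0.06) and Hdac2, a histone deacetylase gene, at 192 h (0.18 ± 0.27).

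Nuclear receptors themselves had a probe for 20 of 46 genes. At 192 h the means of all 4 tested receptors were below 0 with a median of -0.13, against -0.0019 for all tested genes. Nr4a3, an orphan receptor gene, had -0.05, -0.06 and -1.32 in replicates 1, 3 and 4, so 1 replicate set its mean of -0.48 ± 0.73. Pgr, the progesterone receptor gene, had -0.19 ± 0.32, with -0.554, 0 and -0.015 in these replicates. The other receptors tested at 192 h had replicates on both sides of 0. They were Hnf4a at -0.223, 0.225 and -0.211 and Nr1d2 at 0.123, -0.508 and 0.282. At 72 h 3 of 8 receptors were above 0, with a median of -0.04, and Nr6a1 at -0.23 ± 0.25 and Nr2f1 at 0.13 ± 0.10 lay farthest from 0. At 18 h Nr4a3 had 0.32 ± 0.73 and Pgr -0.16 ± 0.18. Of 21 genes known to respond to steroid or thyroid hormone in brain, 12 had a probe, and 1 of 3 was above 0 at 18 h, 2 of 3 at 72 h and 2 of 4 at 192 h. Dusp1, a glucocorticoid-inducible phosphatase gene, had -0.34 ± 0.29 at 18 h, and Gal, which encodes galanin, had -0.15 ± 0.59 at 18 h and -0.20 ± 0.34 at 192 h. At 72 h Hr, a corepressor gene that responds to thyroid hormone in rat brain, had 0.15 ± 0.52 and Klf9, a transcription factor gene induced by glucocorticoid and thyroid hormone, -0.14 ± 0.35.

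**Figure D5:**
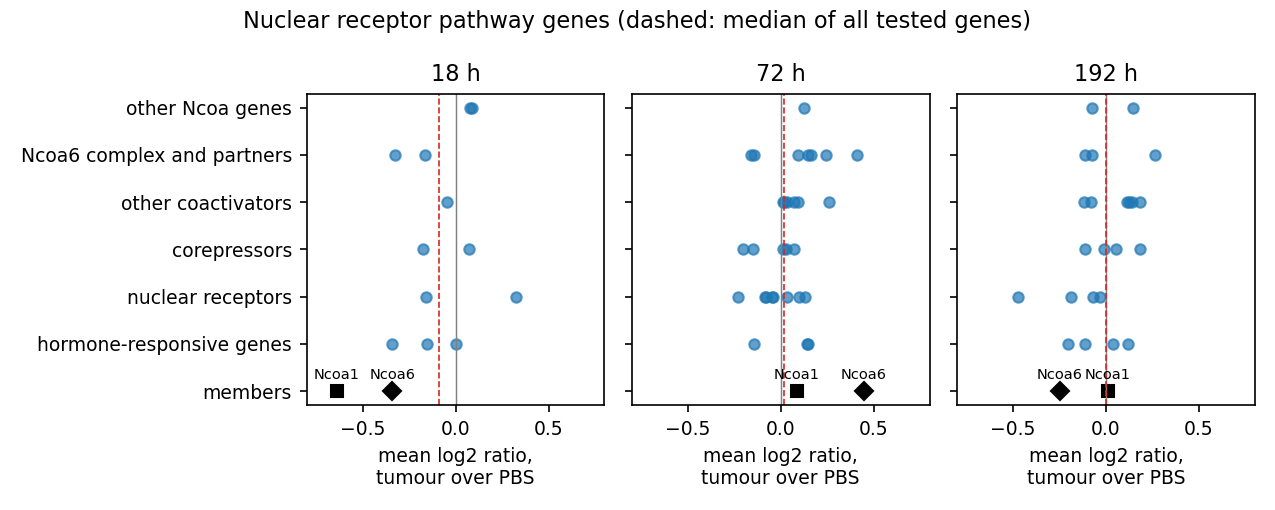
Mean log2 tumour over PBS ratio (horizontal axis) of the tested genes of each pathway list (blue points, 1 gene each, vertical axis) and of Ncoa1 and Ncoa6 (black) at 18, 72 and 192 h. The dashed line is the median of all genes tested at that time. At 18 h Ncoa1 at -0.64 lies below every listed gene shown, and at 72 h Ncoa6 at 0.45 and Kdm6a at 0.41 lie highest.

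Cell type markers gave no value past the test at any time (limma, adjusted p). At 18 h 3 neuron and astrocyte markers were tested, 1 above and 1 below 0 for neurons and 1 below 0 for astrocytes (median -0.03 and -0.15), and no marker of oligodendrocytes, microglia, blood or endothelium. Oxt was the 1 hypothalamic peptide gene tested then, at 0.10 ± 0.17. At 72 h 3 of 5 neuron, 2 of 3 astrocyte, 2 of 4 oligodendrocyte, 1 of 2 microglia and 0 of 2 blood markers were above 0, with 1 of 3 hypothalamic peptide genes. At 192 h 1 of 3 neuron, 3 of 4 astrocyte, 4 of 4 oligodendrocyte and 1 of 3 microglia markers were above 0, and hypothalamic peptide genes were above 0 for 6 of 7 with a median of 0.26. No endothelial marker was tested at any time, and no blood marker at 192 h. The part of cell make-up in the Ncoa1 and Ncoa6 ratios was not tested.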

How the data were processed

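Hypothalamus RNA was measured on 2-colour arrays; both genes and all lists were chosen with earlier results of these data known. Per the file headers, the deposited spot intensities are corrected for local background, and a deposited saturation factor is a fraction between 0 and 1. The authors' deposited value tables were treated as a score, a centred log ratio (column medians from -0.0079 to 0.0109) of unknown base. Image and normalization software of the authors is not given in the sources used here.

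R 4.3.3 and limma 3.58.1 were used. A spot was dropped where a channel was saturated, unmeasured or at or below 0. Loess (span 0.3, 4 iterations) was applied to each scan, scans and spots of an accession were averaged, the probe's mean Cy5 over Cy3 effect was subtracted, taken over those of the 7 replicates labelled both ways that measured it in both (6 for Ncoa1, 4 for Ncoa6), and arrays were averaged per replicate. Prints 1 and 2 were left out, apart from the setting with all 5 prints. The reason is that their mean brightness by accession correlated at 0.034 to 0.146 with prints 3 to 5, against 0.554 to 0.589 among those. Names come from the platform annotation (9008 accessions, 11 with several symbols or none, 8909 matched to a current record). A gene with several probes is given by its brightest.

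One limma model with a mean per time was fitted on the 9 replicates (spread shared over 5184 genes, prior degrees of freedom 6.96). A gene was tested at a time with 3 values there. The number of arrays limits the precision: log2 ratios had a median standard error of 0.17, 0.172 and 0.175 at 18, 72 and 192 h. Named genes are both members, the 5 of highest correlation with each, and up to 4 list genes per time with the largest mean; of these the text names mostly the 2 largest, which narrows that rule and was decided with the values in view. The code was tested on simulated ratios.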

Additional observations from a re-analysis of the deposited data

Results flagged for a closer look

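Ncoa6 lay on opposite sides of 0 in every replicate of 192 h and of 72 h, and the difference of its mean log2 ratios, 192 minus 72 h, was -0.69. The replicates had -0.38, -0.28 and -0.09 at 192 h, against 0.50, 0.35 and 0.49 at 72 h. Of 1894 genes, 7.66% were lower at 192 h than at 72 h with no overlap, a looser trait that does not ask for opposite sides of 0. The share of genes on opposite sides of 0 was not counted. The opposite sides of Ncoa6 are those after loess. Before it, Ncoa6 had 0.0010 in replicate 1 and -0.53 in replicate 4 at 72 h, and 0.60 in replicate 3 at 192 h. With spots under their listed background left out, replicate 4 at 192 h stood at 0.0055. The difference of this gene was not tested by itself, since it was chosen on these ratios. Over all 1894 genes compared between these times none passed by limma (adjusted p 0.05); an unadjusted p under 0.05 was found for 43. With 3 replicates per time no sample could be judged an outlier.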

How the results depend on the processing

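The Ncoa6 mean at 72 h (0.45) was 0.60 with normexp, 0.30 with median centring, 0.30 with loess within print blocks, 0.67 with the first scan and 0.35 with the third scan (n = 2 each), 0.59 without spots under their listed background, and 0.18 with all 5 prints. Ncoa6 at 192 h (-0.25) was -0.0996 with loess within print blocks and -0.0872 on print 5 alone. Ncoa1 at 192 h (0.0098) was -0.0698 with median centring and -0.0873 without dye correction. Ncoa1 at 72 h (0.09) was 0.29 without spots under their background. Ncoa1 at 18 h (-0.64) was -1.04 with normexp and -0.49 without spots under their background (n = 2), moves within 1 SD of its replicates. The authors' table gave 0.31 for Ncoa6 at 72 h (n = 2), -0.0343 for Ncoa6 at 192 h and -0.21 for Ncoa1 at 18 h; its log base is unknown, so these are no measure of a move in log2. Leaving out a replicate gave -0.87 to -0.49 for Ncoa1 at 18 h, 0.01 to 0.18 at 72 h and -0.03 to 0.03 at 192 h. For Ncoa6 it gave -0.63 to -0.05 at 18 h, 0.42 to 0.50 at 72 h and -0.33 to -0.18 at 192 h. The cause was not tested. The number of genes past the test, 0 in each comparison, was 2 at 72 h and 1 at 192 h with the replicate block and 1 at 192 h with dye orientation as a covariate. It ran from 0 to 1 at 72 h when a replicate was left out, with 1 gene without replicate 3 of 72 h. Whether replicate numbers pair the samples is not settled. Samples of the same number correlated at -0.099 to 0.216 (median 0.084, 7 pairs) and others at -0.249 to 0.128 (median 0.0035, 20 pairs).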

Other observations

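On prints 1 and 2, where the given names matched the intensities poorly, the spots annotated to Ncoa6 had log2 tumour over PBS ratios of -0.09 and 0.04 in replicate 1 and -0.06 and -0.09 in replicate 2 at 18 h. At 72 h they had -0.01 and -0.50 in replicate 1 and -0.11 in replicate 2. At 192 h they had -0.19 in replicate 1 and -0.66 and 0.57 in replicate 2. The spots annotated to Ncoa1 there gave a ratio on 4 of the 13 arrays, -0.26 at 18 h, 0.67 and 0.21 at 72 h and -0.02 at 192 h. Which genes these spots measure is not settled, so these values enter only the setting with all 5 prints.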
